A study of Mus musculus with 10 samples.

Results

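The 10 genes described here encode the ligands of the epidermal growth factor (EGF) receptor, Egf, Areg, Ereg, Hbegf, Tgfa and Btc, and the 4 receptors of the ErbB family, Egfr, Erbb2, Erbb3 and Erbb4. They were chosen by name, with earlier results of these data known, and the rule of choice used no measured value. Of the 10, 9 had a row among the 21010 genes of the count table, and 8 had enough reads to be tested. Areg fell below the filter on low counts, and Ereg was not analysed here.

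Kidney RNA from 5 KMS mice was compared with that from 5 KM mice, with 1 library per mouse, all on the C57BL/6 strain and, according to the Reporting Summary, 20 weeks old. By the labels, KMS mice carried Ksp1.3/cre, MYCfl/fl and Setd2fl/fl. KM mice carried Ksp1.3/cre and MYCfl/fl without the Setd2 allele, so that Cre and the MYC transgene were shared by both groups. For both groups the methods instead give a heterozygous MYC transgene behind a floxed stop. The Ksp promoter is that of Cdh16, a cadherin of the renal tubule, so that MYC is switched on, and Setd2, which encodes the methyltransferase that sets H3K36me3, is removed in tubular epithelium. KM mice are the model of polycystic kidney disease and KMS mice that of clear cell renal cell carcinoma, and the comparison asked what the loss of Setd2 adds to MYC. As the source of the RNA, the labels give tubular epithelial cells isolated from cortex, the methods give kidney tissue, and the Reporting Summary gives cysts for KM and neoplastic masses for KMS. Both sexes were used and no mouse is labelled with its sex. The 4 Y-linked genes examined had a mean log2 CPM above 0 in 2 of 5 KMS libraries and in 4 of 5 KM libraries.

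EGF family ligands are made as precursors in the cell membrane and are released by proteases of the ADAM family before they bind a receptor on the same or a neighbouring cell. Egf, Areg and Tgfa bind EGFR, Hbegf, Btc and Ereg bind EGFR and ERBB4, and neuregulins bind ERBB3 and ERBB4. ERBB2 has no ligand of its own and ERBB3 has little kinase activity, so that both signal in pairs with another receptor, mainly through the Ras-ERK and PI3K pathways. In the kidney, Egf is made in the thick ascending limb (TAL) and the distal convoluted tubule (DCT), and EGFR signalling has been studied in tubular repair, cyst growth and renal cancer.

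Levels are given as CPM, a gene's reads relative to the total of its library after scaling by the TMM factors of edgeR. A gene was called at a false discovery rate under 0.05 and a fold change over 1.5 in edgeR's quasi-likelihood test, with p-values adjusted over all 15728 genes tested. Total counts were between 16925118 and 25029639 in KMS and between 10873993 and 14564152 in KM, so that every KMS library was the deeper. KMS replicate 5 stood apart, with a TMM factor of 0.642 and a mean Spearman correlation of 0.851 with the other KMS libraries, against 0.913 to 0.958 for the other 9 libraries within their groups. Setd2, counted over the whole gene, was at 89.0, 36.2, 71.1, 60.4 and 28.2 CPM in KMS replicates 1 to 5, against 62.6 to 73.3 CPM in KM. Its log2 fold change, KMS over KM as throughout, was -0.25 (edgeR adjusted p = 0.658; -0.47, -0.12 and -0.043 without KMS replicates 1, 2 and 5 in turn), and reads counted from all exons do not check the removal of a floxed one.

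Tubular markers, from lists written with earlier results of these data known, were present in every library. The 12 proximal tubule genes summed to between 3717 and 24680 CPM in KMS and between 6953 and 20030 CPM in KM, and the 12 TAL and DCT genes to between 3209 and 5752 CPM in KMS and between 1213 and 8967 CPM in KM. Genes of other cell types were present as well, so the libraries did not hold epithelial RNA alone. The 10 endothelial genes summed to 266.7 to 1282 CPM in KMS and 400.5 to 1154 CPM in KM. The 12 fibroblast genes summed to 156.7 to 234.7 CPM in KMS and 286.9 to 644.8 CPM in KM, without overlap. The 12 T and NK cell genes summed to 3.93 to 14.9 CPM in KMS and 22.3 to 49.9 CPM in KM. These did not overlap either, but the gap rested on Cd8a, at 0.19 to 3.72 CPM in KMS and 6.31 to 27.4 CPM in KM. Without Cd8a the T and NK cell sums would overlap. Macrophage genes (12) summed to 156.3 to 393.7 CPM in KMS and 282.3 to 967.4 CPM in KM, and basal and urothelial genes (9 in the table) to 1.48 to 28.5 CPM in KMS and 19.5 to 203.6 CPM in KM. The log2 fold change was negative for 12 of 12 fibroblast, 11 of 11 macrophage and 8 of 8 T and NK cell genes tested, with medians of -1.61, -1.26 and -1.83. It was also negative for 14 of 14 genes of dividing cells, 8 of 8 of B and plasma cells and 7 of 7 basal and urothelial genes tested, with medians of -1.52, -2.11 and -3.71, and for 9 of 12 collecting duct genes, with a median of -0.36. Genes of dividing cells summed to 20.5 to 76.1 CPM in KMS and 69.2 to 178.6 CPM in KM, and those of B and plasma cells to 51.3 to 190.1 CPM in KMS and 106.6 to 548.5 CPM in KM. Their part in the values of the EGF and ErbB genes was not tested. In bulk RNA, fewer cells of a type and less RNA per cell cannot be told apart.

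The ligands Ereg, Areg and Btc lie within 328 kb of each other on chromosome 5 (GRCm38, from 91074617 to 91402994). Egf is on chromosome 3 (129677574 to 129755322) and Tgfa on chromosome 6 (86195038 to 86275744). Among the receptors, Egfr (16752203 to 16913907) and Erbb2 (98412484 to 98437716) share chromosome 11, Erbb3 is on chromosome 10 (128567523 to 128589635) and Erbb4 on chromosome 1 (68031884 to 69108576). The 120 bases before the annotated start of Egf and of Areg are shown because these were the most and the least abundant ligands, with capitals for the TATA box letters TATAAA and for the cyclic AMP response element letters TGACGTCA (RefSeq, GRCm38.p6, 5′ to 3′ on the gene's own strand; Egf at chr3:129755323-129755442, minus strand, and Areg at chr5:91139479-91139598, plus strand).
Egf: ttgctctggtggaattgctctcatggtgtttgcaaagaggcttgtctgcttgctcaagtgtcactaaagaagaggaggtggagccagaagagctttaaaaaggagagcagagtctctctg
Areg: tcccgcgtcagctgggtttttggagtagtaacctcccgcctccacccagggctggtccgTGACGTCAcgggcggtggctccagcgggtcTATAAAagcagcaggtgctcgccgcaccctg

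In the Areg window, TATAAA began 31 bases and TGACGTCA 61 bases before the start, and neither was found in the Egf window. Within 250 bases before the start, on both strands, TATAAA occurs in 12.4% and TGACGTCA in 1.55% of 32851 promoters. The window of 300 bases around the start held no CpG in Egf, as in 5.43% of all promoters, and 21 in Areg. A second annotated start of Egf, inside the gene, had 17 CpG. Promoters of 7 of the 10 genes were matched, and Tgfa had 24 CpG, Erbb2 21, Erbb4 17, Egfr 15 and Btc 5. These letters are a description and say nothing of binding.

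None of the 8 genes tested was called between KMS and KM by edgeR's quasi-likelihood test, against 0.102% of all genes (16 of 15728). Only Hbegf had an unadjusted p under 0.05, where 19.5% of all genes did. DESeq2 also called 0 of the 8, against 5.4% of the same genes, and so did each other tool, scaling, filter and left-out library that was run. The CPM of the groups overlapped for all 8, while 4.79% of all genes tested did not overlap. A value that misses the threshold does not show that the groups were alike, and the standard errors, from 0.18 for Erbb2 to 0.83 for Egf on the log2 scale, show how unequal the precision was.

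**Figure D1:**
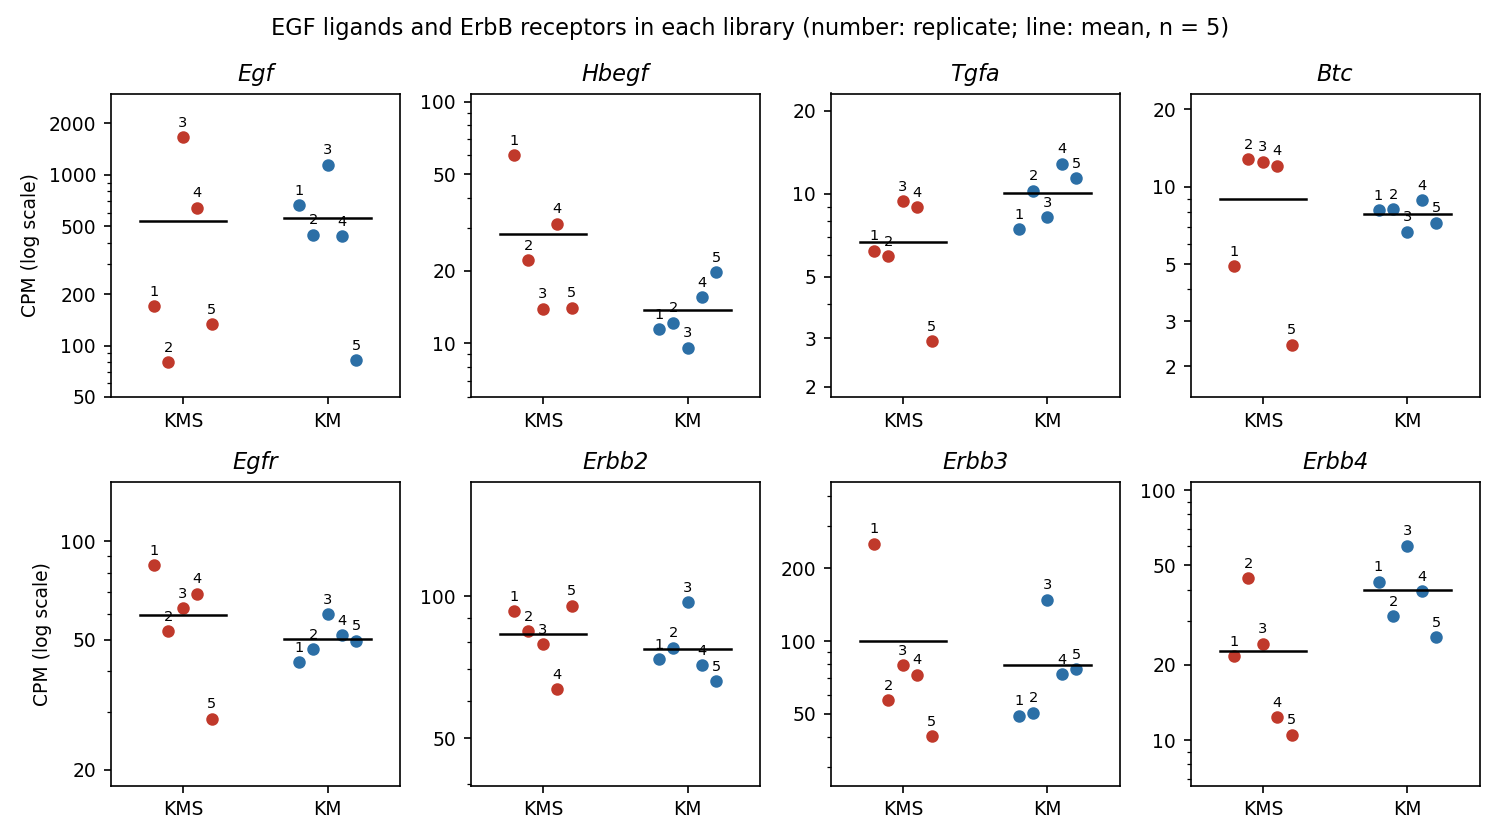
CPM on a log scale of the 8 tested genes in each library, KMS left of KM; each point is a mouse, the number is its replicate and the line is the group mean (n = 5). The 2 groups overlap in each panel, Egf spans 79.8 to 1660 CPM in KMS and 81.9 to 1146 CPM in KM, and KMS replicate 5 is the lowest KMS library for 5 of the 8 genes.

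Among the ligands, Egf, whose precursor is anchored in the luminal membrane of the distal tubule, had the highest counts. It was at 169.8, 79.8, 1660, 639 and 133 CPM in KMS replicates 1 to 5, against 665, 445, 1146, 435 and 81.9 CPM in KM replicates 1 to 5. KMS replicate 3 was the highest library of all and KMS replicate 2 the lowest, with KM replicate 5 next to it, so that the range of KMS covered that of KM on both sides. The means were 536 ± 667 CPM in KMS and 555 ± 391 CPM in KM (SD, n = 5 each), and the log2 fold change was -0.048 with a standard error of 0.83 (edgeR adjusted p = 0.98). The direction rested on single libraries: the log2 fold change was -1.11 without KMS replicate 3, 0.40 without KM replicate 3 and 0.22 without KMS replicate 5. The highest library exceeded the lowest 20.8-fold in KMS and 14.0-fold in KM, and only 5.15% of 15291 genes counted in every library had a larger ratio in KMS and 2.15% in KM.

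Because Egf comes from the TAL and DCT, its level was set against the sum of 12 other genes of these segments in the same library. Among these genes are Umod, the uromodulin gene of the TAL, at a mean of 2384 CPM in KMS and 3184 CPM in KM, and Slc12a3, the thiazide-sensitive sodium chloride cotransporter of the DCT, at 850.1 CPM in KMS and 430.1 CPM in KM. Egf amounted to 5.29, 1.72, 28.9, 16.1 and 3.67% of the sum in KMS replicates 1 to 5, against 11.3, 10.3, 12.8, 10.7 and 6.75% in KM replicates 1 to 5. The KM libraries thus lay within a narrow band, in spite of a 14.0-fold range of Egf, while 2 KMS libraries lay above that band and 3 below it. The log2 ratio was -3.86 ± 1.64 in KMS and -3.30 ± 0.35 in KM (SD, n = 5 each). The difference of the means was -0.56, with an exact two-sided permutation p of 0.484 over 252 groupings, where the smallest p possible is 0.00794. Single KMS libraries moved this difference, to -0.055 without replicate 2, -1.07 without replicate 3, -0.86 without replicate 4 and -0.33 without replicate 5. Whether the spread itself differs between the groups was not tested. None of the 12 TAL and DCT genes was called by edgeR, against 0.102% of all genes, and 0 by DESeq2, against 5.4%. Among the 12, 1 positive and 1 negative fold change had an unadjusted p under 0.05, where 19.5% of all genes did.

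**Figure D2:**
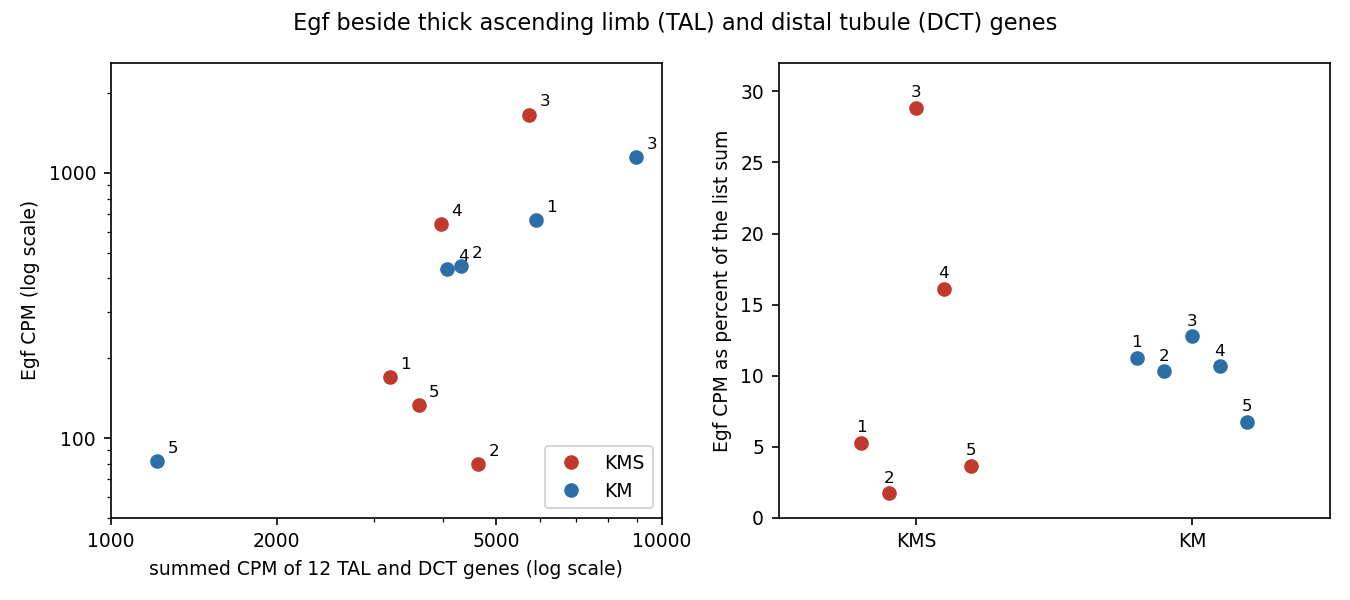
Left, Egf CPM against the summed CPM of 12 TAL and DCT genes, both on log scales; right, Egf as a percent of that sum, KMS left of KM; points are libraries, numbered by replicate. The KM libraries lie between 6.75 and 12.8%, and the KMS libraries between 1.72 and 28.9%.

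Hbegf, the heparin-binding ligand known to be induced in injured tubules, had the largest log2 fold change of the 8 genes. It was at 60.0, 22.1, 13.9, 31.3 and 14.1 CPM in KMS replicates 1 to 5, against 11.5, 12.2, 9.59, 15.5 and 19.7 CPM in KM replicates 1 to 5. KMS replicates 1, 2 and 4 were above every KM library, while KMS replicates 3 and 5 lay within the range of KM. On the log2 scale the fold change was 1.05 (standard error 0.41, unadjusted p = 0.025, edgeR adjusted p = 0.212 and DESeq2 adjusted p = 0.132), with means of 28.3 ± 19.1 CPM in KMS and 13.7 ± 3.97 CPM in KM (SD, n = 5 each). Over all alternatives the adjusted p was between 0.0632 and 0.524, and the log2 fold change was 0.58 without KMS replicate 1. The 13 genes of the tubule injury list, which does not hold Hbegf, had a median log2 fold change of -1.85, with 3 positive and 10 negative. Of them, 0 were called by edgeR and 2 by DESeq2, both downward, against 0.102% and 5.4% of all genes. At an unadjusted p under 0.05 were 0 positive and 5 negative fold changes, where 19.5% of all genes were. Their sums overlapped, at 1926 to 9501 CPM in KMS and 3332 to 13540 CPM in KM. Spp1 alone was at 1435 to 7149 CPM in KMS and 2119 to 11160 CPM in KM. A link of Hbegf to injury was not tested.

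Tgfa, a ligand of EGFR that many epithelia make for themselves, was at 6.22, 5.94, 9.39, 8.96 and 2.93 CPM in KMS replicates 1 to 5, against 7.45, 10.3, 8.23, 12.9 and 11.4 CPM in KM replicates 1 to 5. Of the KMS libraries, 3 were below every KM library and KMS replicates 3 and 4 were within the KM range. A log2 fold change of -0.59 resulted (standard error 0.34, edgeR adjusted p = 0.353), which was -0.36 without KMS replicate 5.

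Btc, betacellulin, was at 4.91, 12.8, 12.5, 12.1 and 2.43 CPM in KMS replicates 1 to 5, against 8.12, 8.17, 6.69, 8.87 and 7.26 CPM in KM replicates 1 to 5. The KMS libraries lay on both sides of KM, with 3 above and 2 below the whole KM range, and the SD was 4.91 CPM in KMS and 0.85 CPM in KM. Its log2 fold change was 0.20 (standard error 0.42, edgeR adjusted p = 0.835). Each KMS library moved it, to 0.35, 0.035, 0.051, 0.069 and 0.46 without replicates 1 to 5 in turn.

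Areg, amphiregulin, was hardly counted. There were 14, 0, 0, 0 and 1 reads in KMS replicates 1 to 5, against 3, 2, 4, 0 and 4 reads in KM replicates 1 to 5. Almost all the KMS reads came from replicate 1, the library with the highest Hbegf and Erbb3. A count of 0 allows up to 0.173, 0.177 and 0.165 CPM in KMS replicates 2 to 4 and 0.206 CPM in KM replicate 4, for counting error alone. With no filter, the log2 fold change was -0.23 (edgeR adjusted p = 0.94), and a difference was not detectable at this depth.

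Egfr, the receptor of every ligand above, was at 84.2, 53.1, 62.3, 69.1 and 28.6 CPM in KMS replicates 1 to 5, against 42.7, 46.7, 59.7, 51.6 and 49.6 CPM in KM replicates 1 to 5. Of the KMS libraries, 3 exceeded every KM library, and KMS replicate 5 was below all of them. This gave a log2 fold change of 0.25 (standard error 0.26, edgeR adjusted p = 0.628), and of 0.094 without KMS replicate 1 and 0.46 without KMS replicate 5.

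Erbb2, the receptor without a ligand, had the smallest standard error of the 8 genes. It was at 92.9, 84.1, 79.0, 63.4 and 95.4 CPM in KMS replicates 1 to 5, against 73.4, 77.7, 97.0, 71.3 and 66.0 CPM in KM replicates 1 to 5. The ranges nearly coincided, with KMS replicate 4 the lowest and KM replicate 3 the highest library of the 10. Means were 83.0 ± 12.8 CPM in KMS and 77.1 ± 11.9 CPM in KM (SD, n = 5 each). The fold change on the log2 scale was 0.11 (standard error 0.18, edgeR adjusted p = 0.788), and it was -0.048 with upper-quartile scaling and between 0.056 (without KM replicate 5) and 0.21 (without KM replicate 3) with single libraries left out.

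Erbb3, the neuregulin receptor with little kinase activity, was at 253, 56.8, 79.5, 72.5 and 40.3 CPM in KMS replicates 1 to 5, against 49.0, 50.5, 148, 73.0 and 76.5 CPM in KM replicates 1 to 5. A lone library in each group, KMS replicate 1 and KM replicate 3, stood far above the others. The log2 fold change of 0.34 (standard error 0.49, edgeR adjusted p = 0.741) turned to -0.35 without KMS replicate 1, and was 0.70, 0.21 and 0.22 when KM replicate 3, 1 or 2 was left out, 0.58 when KMS replicate 5 was and -0.10 with the Y-linked genes as a covariate.

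Erbb4, the receptor of neuregulins, Hbegf and Btc with a kinase of its own, was at 21.65, 44.55, 24.3, 12.4 and 10.5 CPM in KMS replicates 1 to 5, against 43.0, 31.4, 59.9, 39.3 and 25.8 CPM in KM replicates 1 to 5. KMS replicates 1, 3, 4 and 5 were below every KM library, and KMS replicate 2 was above 4 of the 5 KM libraries. Means were 22.7 ± 13.6 CPM in KMS and 39.9 ± 13.0 CPM in KM (SD, n = 5 each). This amounted to -0.81 on the log2 scale (standard error 0.39, unadjusted p = 0.057, edgeR adjusted p = 0.268), and with single libraries left out this was between -1.21 (without KMS replicate 2) and -0.61 (without KM replicate 3).

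**Figure D3:**
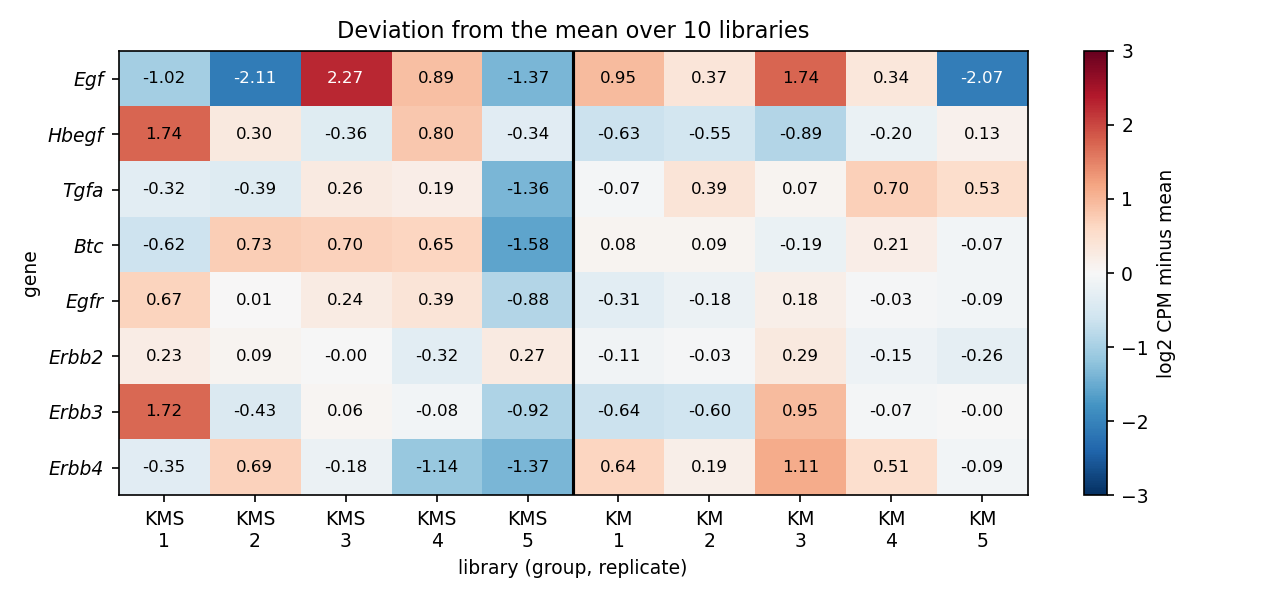
Log2 CPM of the 8 tested genes (rows) in each library (columns, KMS left of KM), less the gene's mean over the 10 libraries; red is above and blue below that mean. KMS replicate 1 is high for Hbegf (1.74) and Erbb3 (1.72), KMS replicate 5 is low for Btc (-1.58), Erbb4 (-1.37) and Tgfa (-1.36), and KM replicate 5 is low for Egf (-2.07).

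Levels of different genes were compared per kilobase of exon, as CPM per kb. Egf was the highest ligand in each of the 10 libraries, at 47.6 ± 59.1 CPM per kb in KMS and 49.2 ± 34.7 CPM per kb in KM (SD, n = 5 each). Hbegf followed at 5.85 ± 3.96 CPM per kb in KMS and 2.83 ± 0.82 CPM per kb in KM. Btc was at 1.98 ± 1.09 CPM per kb in KMS and 1.73 ± 0.19 CPM per kb in KM and Tgfa at 1.03 ± 0.40 CPM per kb in KMS and 1.55 ± 0.34 CPM per kb in KM, so that these neighbours did not differ beyond their spread in KM. Egf made up 50.1, 45.9, 95.4, 84.3 and 74.9% of the summed ligand CPM per kb in KMS replicates 1 to 5, against 91.5, 86.7, 95.4, 84.4 and 48.7% in KM replicates 1 to 5. Where the share of Egf was low, that of Hbegf was high, with 41.3% in KMS replicate 1, 29.7% in KMS replicate 2 and 27.2% in KM replicate 5, and between 1.86 and 18.5% in the other 7 libraries. Shares of 1 sum depend on each other, and this is a description.

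Among the receptors, Erbb3 and Erbb2 were close, at 16.7 ± 14.4 and 15.9 ± 2.45 CPM per kb in KMS and at 13.2 ± 6.71 and 14.8 ± 2.28 CPM per kb in KM (SD, n = 5 each). Erbb3 was the highest receptor in KMS replicate 1 and KM replicates 3 and 5, and Erbb2 in the other 7 libraries. Egfr came below both, at 5.25 ± 1.82 CPM per kb in KMS and 4.42 ± 0.56 CPM per kb in KM. Erbb4 was the lowest receptor in each of the 10 libraries, at 1.83 ± 1.10 CPM per kb in KMS and 3.23 ± 1.05 CPM per kb in KM. Its share of the summed receptor CPM per kb was between 2.54 and 10.6% in KMS (median 3.20%) and between 6.57 and 11.8% in KM (median 9.08%).

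The spread between mice was larger in KMS than in KM for each of the 8 genes, measured as the ratio of the highest to the lowest library. This was no particular property of these genes, since 83.5% of 15291 genes had the larger ratio in KMS, with medians of 3.18 in KMS and 1.86 in KM. Without KMS replicate 5 it held for 6 of the 8 genes and for 60.9% of all genes. KM replicates 1 and 2 had nearly the same counts (Spearman correlation 0.993). If they are not independent, the KM ranges and SDs rest on fewer than 5 libraries. The same then holds for the standard errors, the p-values and the overlaps between groups. KMS replicate 5 was the lowest KMS library for 5 of the 8, where it was the lowest for 32.7% of all genes tested.

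Across the 10 libraries, Egfr and Erbb3 had the most similar profiles of the 28 pairs of these genes (Pearson r = 0.80, Spearman rho = 0.79 over log2 CPM). Tgfa and Btc had an r of 0.67 but a rho of 0.30, and the lowest r was -0.66, between Tgfa and Erbb2. The points share library depth, scaling and the low library KMS replicate 5, and the values are descriptions. The genes closest to Egf, the ligand of highest level, were Fkbp9 (r = 0.95), Abca2 (0.94), Itpr1 (0.94), Scara5 (0.93) and Gas1 (0.93). Those closest to Erbb2, the receptor of highest mean log2 CPM, were Tmem184a (0.96), Rbm15b (0.95), Atg7 (0.95), Mllt1 (0.94) and Aldh1l1 (0.94).

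In the rest of the pathway, 0 of 69 genes tested in 5 lists were called by edgeR, against 0.102% of all genes, while 8 had an unadjusted p under 0.05 and a positive and 7 a negative fold change, or 21.7% against 19.5% of all genes. DESeq2 called 3 of the 69, or 4.35% against 5.4% of all genes, Errfi1 upward and Adam10 and Phlda1 downward. The shares were thus near those of all genes. Over all genes tested, 54.0% had a positive fold change and the median was 0.06 on the log2 scale.

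Of the other EGF family ligands, 3 of 5 had a row and 2 were tested. Nrg1, neuregulin 1, was at 6.32 to 11.1 CPM in KMS and 10.95 to 16.5 CPM in KM (log2 fold change -0.43, edgeR adjusted p = 0.346). Nrg4 was at 0.35 to 2.36 CPM in KMS and 1.51 to 3.28 CPM in KM (-0.58, edgeR adjusted p = 0.527; -0.32 without KMS replicate 3).

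Among 10 genes of ligand shedding, 5 had a positive and 5 a negative fold change, with a median of -0.23. Adam10, the protease that releases EGF and betacellulin precursors in mouse cells, was at 9.12, 11.02, 13, 16.7 and 7.23 CPM in KMS replicates 1 to 5, against 19.96, 20.1, 26.6, 29.1 and 20.8 CPM in KM replicates 1 to 5. Every KMS library was below every KM library, as for 4.79% of all genes in either direction. The log2 fold change was -1.03 (standard error 0.26, unadjusted p = 0.00202), with an adjusted p of 0.135 from edgeR and of 0.0108 from DESeq2. Adam17, the protease that releases Tgfa, Areg and Hbegf, averaged 37.1 CPM in KMS and 53.7 CPM in KM (-0.53, edgeR adjusted p = 0.324); it lies outside the rule for named genes and was added after its values were seen. Rhbdf1 and Frmd8, partners of ADAM17 on its way to the cell surface, had log2 fold changes of 0.79 (edgeR adjusted p = 0.183) and 0.74 (edgeR adjusted p = 0.242; 0.44 without KMS replicate 5), and the rhomboid protease Rhbdl2 had -1.55 (edgeR adjusted p = 0.208; -0.91 without KM replicate 5).

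The 21 genes of receptor adaptors and the Ras-ERK core had a median log2 fold change of 0.13, with 18 positive and 3 negative, 4 and 1 of them at an unadjusted p under 0.05, or 23.8% against 19.5% of all genes. Hras (listed as Hras1; 0.99, edgeR adjusted p = 0.238) and Mapk3, which encodes ERK1 (0.64, edgeR adjusted p = 0.234), were among the positive ones. For Hras and Mapk3 the highest library was KMS replicate 5, at 196.8 and 219 CPM, against at most 71.3 and 126 CPM in the other KMS libraries, and without it their log2 fold changes were 0.37 and 0.37. Eps8, a substrate and adaptor of EGFR, was at 117.7, 129, 136, 161 and 112 CPM in KMS replicates 1 to 5, against 183, 166, 215, 170.1 and 161 CPM in KM replicates 1 to 5. The groups did not overlap, but KMS replicate 4 and KM replicate 5 were nearly level, and the log2 fold change was -0.45 (edgeR adjusted p = 0.226).

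Of 24 inhibitors of the receptors and the pathway, 12 had a positive and 12 a negative fold change, with a median of -0.03. Errfi1, which encodes MIG6, an inhibitor that binds the kinase domain of EGFR and ERBB2 and is itself induced by EGFR signalling, was at 1439, 239.6, 672, 641 and 322 CPM in KMS replicates 1 to 5, against 120.3, 102, 203, 264 and 239.8 CPM in KM replicates 1 to 5. KMS replicates 1, 3, 4 and 5 were above every KM library and KMS replicate 2 was next to KM replicate 5. The log2 fold change was 1.83 (standard error 0.49, unadjusted p = 0.00283), with an adjusted p of 0.149 from edgeR and of 0.00864 from DESeq2, and 1.34 without KMS replicate 1. Cblc, a ubiquitin ligase of activated receptors, had 1.25 (edgeR adjusted p = 0.25), which was 0.54 without KMS replicate 5. Spry1 (-0.55, edgeR adjusted p = 0.239) and Socs5 (-0.74, edgeR adjusted p = 0.244) had negative values.

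Among 15 genes that ERK signalling induces, 12 were tested, 8 with a positive and 4 with a negative fold change, and the median was 0.26. Phlda1 was at 3.27, 3.12, 4.79, 2.03 and 2.12 CPM in KMS replicates 1 to 5, against 5.21, 6.43, 5.86, 7.36 and 10.01 CPM in KM replicates 1 to 5, without overlap. Its log2 fold change was -1.18 (standard error 0.34, unadjusted p = 0.00455), with an adjusted p of 0.156 from edgeR and of 0.0135 from DESeq2. Emp1, a membrane protein of epithelia, did not overlap either, at 8.29 to 37.6 CPM in KMS and 38.7 to 45.9 CPM in KM (-0.86, edgeR adjusted p = 0.209). Fos, the immediate early transcription factor, was at 1.99 to 100.1 CPM in KMS and 1.18 to 22.6 CPM in KM (1.82, edgeR adjusted p = 0.286; 1.19 without KMS replicate 3), and Etv4 had 1.01 (edgeR adjusted p = 0.361; 0.48 without KMS replicate 2). The 4 genes thus had values of both signs.

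**Figure D4:**
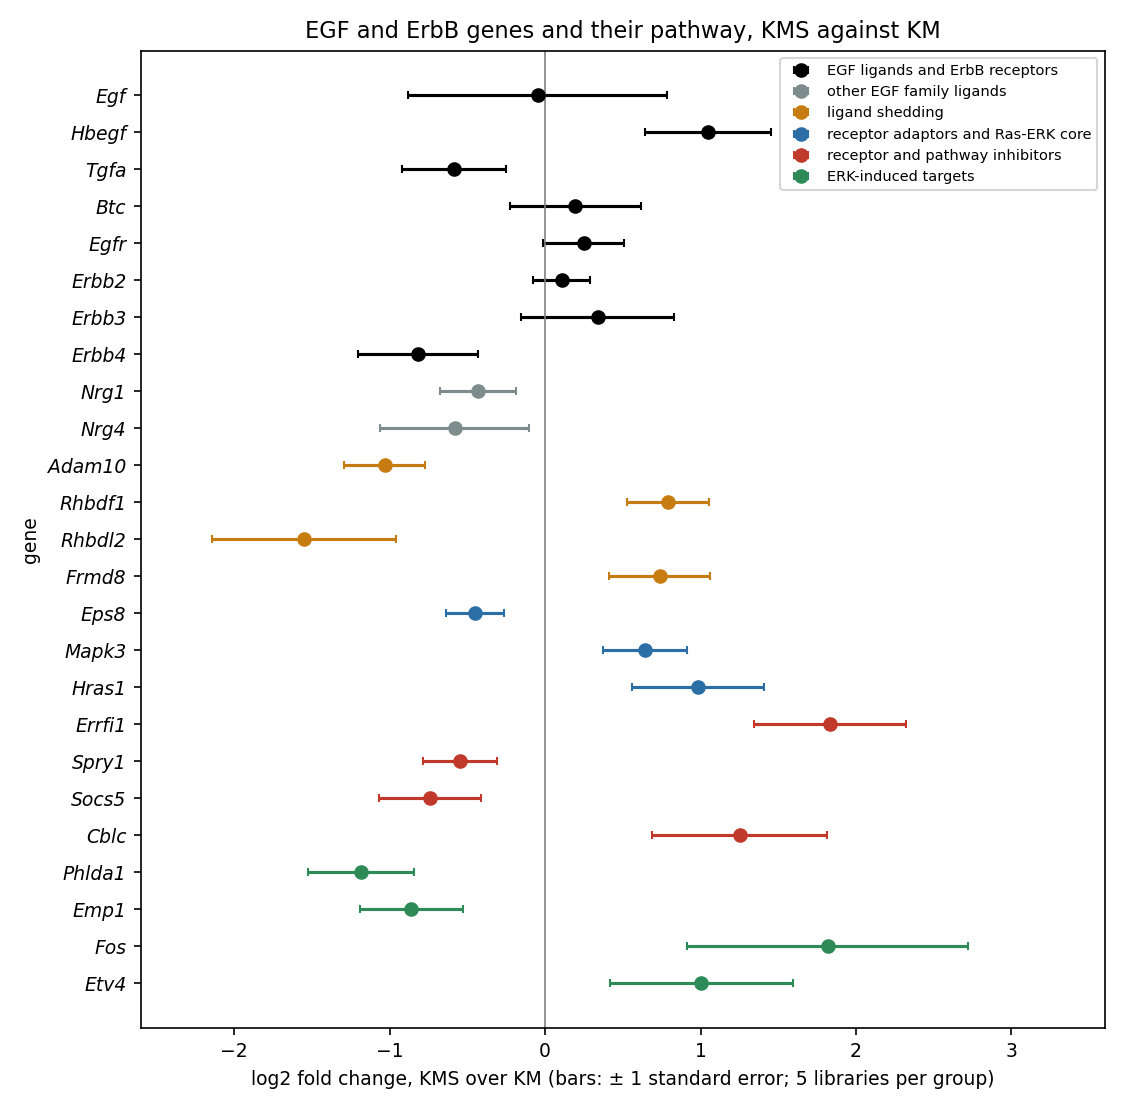
Log2 fold change of KMS over KM with its standard error (bars, 5 libraries per group) for the 8 tested EGF and ErbB genes and for the pathway genes of lowest unadjusted p in each of 5 lists, coloured by list. None was called by edgeR; Hbegf lies at 1.05, Erbb4 at -0.81, Adam10 at -1.03 and Errfi1 at 1.83, and Egf has the longest bar of the 8.

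**Figure D5:**
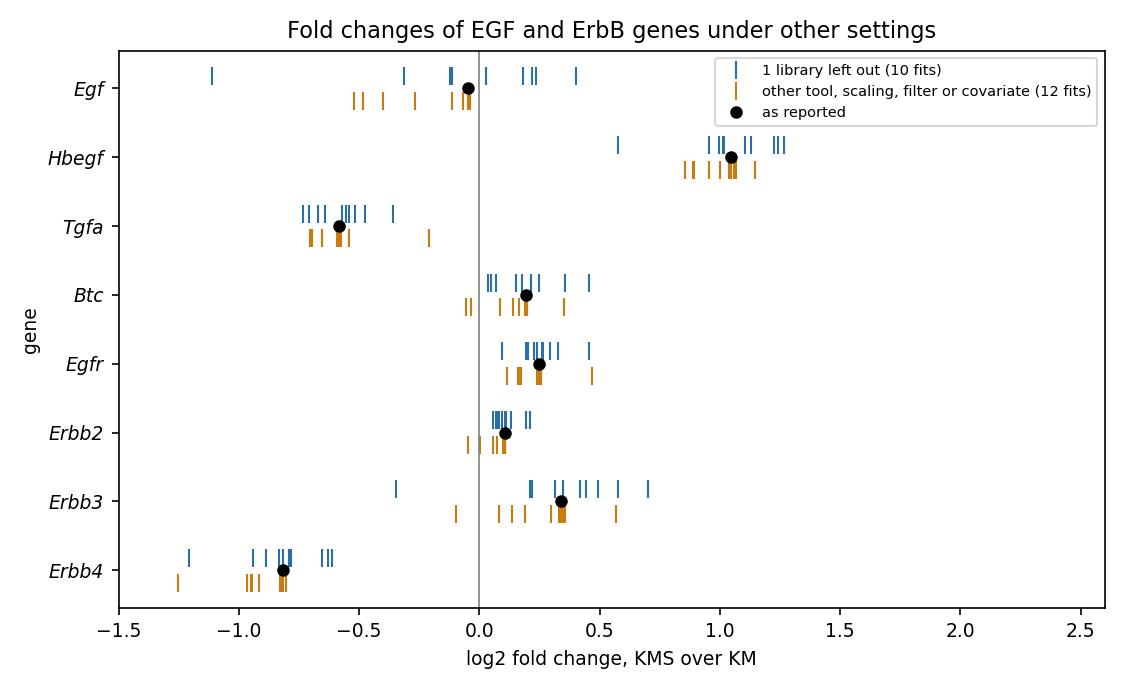
Log2 fold change of KMS over KM of the 8 genes as reported (dot), with 1 library left out (upper ticks) and under another tool, scaling, filter or covariate (lower ticks). Hbegf stays above 0 (0.58 to 1.27) and Erbb4 below 0 (-1.25 to -0.61) in all of them, while Egf spans -1.11 to 0.40 and Erbb3 -0.35 to 0.70.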

How the data were processed

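RNA of 5 KMS and 5 KM mice was sequenced as 150-base read pairs from directional polyadenylated libraries. The authors aligned the reads with HISAT2 2.2.1 to GRCm38 and used HTSeq for counting; its version and its treatment of strand are not given in the sources used. The deposited counts are raw whole numbers for each gene in each mouse. The authors also deposited log2 fold changes, p-values and FDR of their own comparison, which were not used. Processing notes of the submitters further name cutadapt 1.9.1, Trimmomatic 0.35, MACS2 2.1.1, FastQC and StringTie.

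All 10 count columns were mapped to libraries by their names, and libraries were grouped by the labelled genotype. Counts were closest between KM replicates 1 and 2, with a chi-square of 5.46 per degree of freedom and a Spearman correlation of 0.993. Every other pair within a group had a chi-square of at least 44.7. KM replicates 1 and 2 were counted as separate mice because the Reporting Summary gives 5 KM mice, and their labels give only a replicate number. With either left out, 0 of the 8 tested genes were called. Total counts are given with the results. The fit used edgeR 4.0.16 in R 4.3.3 with TMM factors, filterByExpr and the quasi-likelihood test on all genes, without covariates, and Benjamini-Hochberg adjustment. Standard errors were computed as the absolute log2 fold change over the square root of the F statistic of that test. Log2 CPM used a prior count of 3. Exon lengths are unions of GENCODE M21 exons, gene positions and promoters are those of RefSeq for GRCm38.p6, and 3 listed genes were found under an older symbol. The genes were chosen and all gene lists written with earlier results of these data known. Named genes are the 10 themselves, up to 4 genes of lowest unadjusted p in each pathway list, the 2 of highest level in each cell type list, and the 5 closest in profile to the ligand and to the receptor of highest level. A gene under this rule is not reported here. Alternatives were RLE and upper-quartile factors, no filter and a stricter one, DESeq2 1.42.0 with default settings, the likelihood ratio test, limma 3.58.1 voom with and without quality weights, 1 RUVg factor, the level of 4 Y-linked genes as a covariate, a replicate block and each library left out in turn. The control genes of the RUVg factor were all tested genes except the 5000 of lowest p in the same comparison. They were thus picked by the contrast under test. A run of DESeq2 with its alpha at 0.05 was added after seeing the data. Scripts were tested on simulated data. Plots were drawn with matplotlib 3.10.9 in Python 3.11.15.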

Additional observations from a re-analysis of the deposited data

Results flagged for a closer look

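In each group of 5, a library was marked when its gap to the nearest other library took up an unusually large part of the group's range. Of 56 groups checked, 5 were marked. Chance marks about 1 in 20 groups only if the values are normally distributed. CPM entered the rule without a log scale, so the share marked by chance may be larger. Each marked library was the highest of its group. Erbb3 was at 253.1 CPM in KMS replicate 1, where the next KMS library had 79.5 CPM, and at 148.1 CPM in KM replicate 3, where the next KM library had 76.5 CPM. Hras was at 196.8 CPM in KMS replicate 5, with 71.3 CPM in the next KMS library. Etv4, a transcription factor induced by ERK signalling, was at 4.10 CPM in KMS replicate 2, with 1.42 CPM in the next KMS library. Rhbdl2 was at 11.7 CPM in KM replicate 5, with 4.24 CPM in the next KM library. The causes were not tested.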

How the results depend on the processing

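None of the 8 EGF and ErbB genes was called under any alternative run, and Hbegf, Tgfa, Egfr and Erbb4 kept their direction in all of them. The ratio of Egf to the TAL and DCT genes was not run under the other tools, scalings, filters or covariates. Its alternatives were a geometric mean of the list, the sum without its most abundant gene and each library left out. In these the difference kept its direction, between -1.07 (without KMS replicate 3) and -0.055 (without KMS replicate 2). With a single library left out, the log2 fold change of Egf was between -1.11 and 0.40 (positive without KM replicates 1 or 3 or KMS replicates 1, 2 or 5) and that of Erbb3 between -0.35 and 0.70. Other reversals were Btc with voom (-0.056) and with the replicate block (-0.033), Erbb2 with upper-quartile factors (-0.048) and Erbb3 with the Y-linked covariate (-0.10). Upper-quartile factors moved the median of all genes to -0.09, against 0.06 with TMM. The main fit called 16 of the 15728 genes tested (4 up, 12 down). This became 25 with upper-quartile factors, 602 with the likelihood ratio test, 33 with voom and 660 with voom and quality weights. It was 998 with 1 RUVg factor (492 up, 506 down), 6 with the Y-linked covariate and 2 with the replicate block (0 up, 2 down). DESeq2, run on all 21010 genes, called 1072 (255 up, 817 down), and 1106 at an alpha of 0.05. Among the 15728 genes of the main fit, DESeq2 called 850. With 1 library left out of the main fit, 9 to 42 genes were called. The lowest number came without KM replicate 2 or KMS replicate 1 and the highest without KMS replicate 2. Leaving out KMS replicate 4 gave 10 and KMS replicate 5 gave 22. Errfi1 passed both thresholds with DESeq2, the likelihood ratio test, voom with quality weights and the RUVg factor, Adam10 with all of these but voom, Phlda1 with DESeq2 and the RUVg factor and Emp1 with the RUVg factor. The causes were not tested. The main fit did not treat the replicate numbers as pairs. Deviations of same-numbered libraries correlated at -0.34, 0.14, -0.28, 0.12 and -0.44, and only for replicate 4 was the own number the closest match. Whether same-numbered mice shared a batch was not tested. Depth limits Areg, which was too low to be tested.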
